A study of Mus musculus with 9 samples.

Results

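The 32 genes described here belong to the unfolded protein response, the program by which cells answer misfolded protein in the endoplasmic reticulum (ER). They were chosen by gene symbol from a list of ER stress sensors, chaperones, folding enzymes, translocon subunits and degradation factors, and make up 32 of 55471 genes in the deposited table. RNA was measured by poly-A sequencing in pachytene and diplotene spermatocytes of C57Bl mice, germ cells in the late stages of meiotic prophase. The cells were sorted from the enzyme-digested testes of mice carrying tdTomato driven by a promoter specific to germ cells, and were then kept in culture. There were 3 groups of 3 libraries, each with the letters A, B and C. One group had no treatment. Another was kept for 48 h with oxamate, an inhibitor of lactate dehydrogenase that resembles pyruvate, at 24 mM. The last was kept for 48 h with the same 24 mM of oxamate and with 0.3 mM octyl-L-2HG, a cell-permeable ester of L-2-hydroxyglutarate. Octyl-L-2HG was never given on its own, and the labels give no culture time for the untreated cells. The labels do not say whether libraries came from separate animals or cultures, so p-values here cover only a library-to-library spread that could be technical.

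Proteins that enter the secretory pathway fold in the ER with the help of chaperones such as Hspa5 (BiP) and Hsp90b1 (GRP94) and of protein disulfide isomerases. When unfolded protein accumulates, sensors in the ER membrane act. Ern1 (IRE1 alpha) splices the mRNA of the transcription factor Xbp1, Eif2ak3 (PERK) slows translation and favours Atf4 synthesis, and Atf6 is cut in the Golgi by the protease Mbtps1 to release a transcription factor. Their targets include the chaperones and the machinery of ER-associated degradation (ERAD), which extracts misfolded proteins for the proteasome. Spermatocytes make large amounts of membrane and acrosomal protein and carry chaperones specific to germ cells, such as calmegin (Clgn), beside the general ones.

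The RNA levels of the genes differed widely in untreated cells. Levels were compared between genes as CPM (counts relative to library size, with TMM scaling between libraries) per kilobase of exon. Hsp90b1 was the highest at 292.0 ± 37.1 CPM per kilobase (SD, n = 3 here and below), followed by Calr, the calcium-binding lectin chaperone calreticulin, at 224 ± 18.4. Next came Hspa5 at 182 ± 18.6 and Pdia3, the disulfide isomerase that works with calreticulin and calnexin, at 166 ± 16.2. The ranges of Hspa5 and Pdia3 over the 3 untreated libraries overlapped, while those of Hsp90b1 and Calr did not overlap with the next gene down. In all, 13 of the neighbouring pairs in this order overlapped. The sensors and Xbp1 lay at the low end: Atf6 at 2.01 ± 0.145, Xbp1 at 0.875 ± 0.208, Ern1 at 0.298 ± 0.0292 and Eif2ak3 at 0.0157 ± 0.00852 CPM per kilobase. Eif2ak3 had 2, 4 and 3 counts in the untreated libraries, 5, 3 and 3 with oxamate and 7, 4 and 3 with octyl-L-2HG, which was too low to test. The other kinases of the same eIF2 alpha family were present at 14.2 ± 0.305 (Eif2ak1), 5.09 ± 0.809 (Eif2ak2) and 0.156 ± 0.0229 CPM per kilobase (Eif2ak4). Clgn, the germ-cell homolog of calnexin, stood at 440.7 ± 46.8 CPM per kilobase, above Hsp90b1 in each untreated library, while calnexin itself (Canx) stood at 58.4 ± 3.38.

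**Figure D1:**
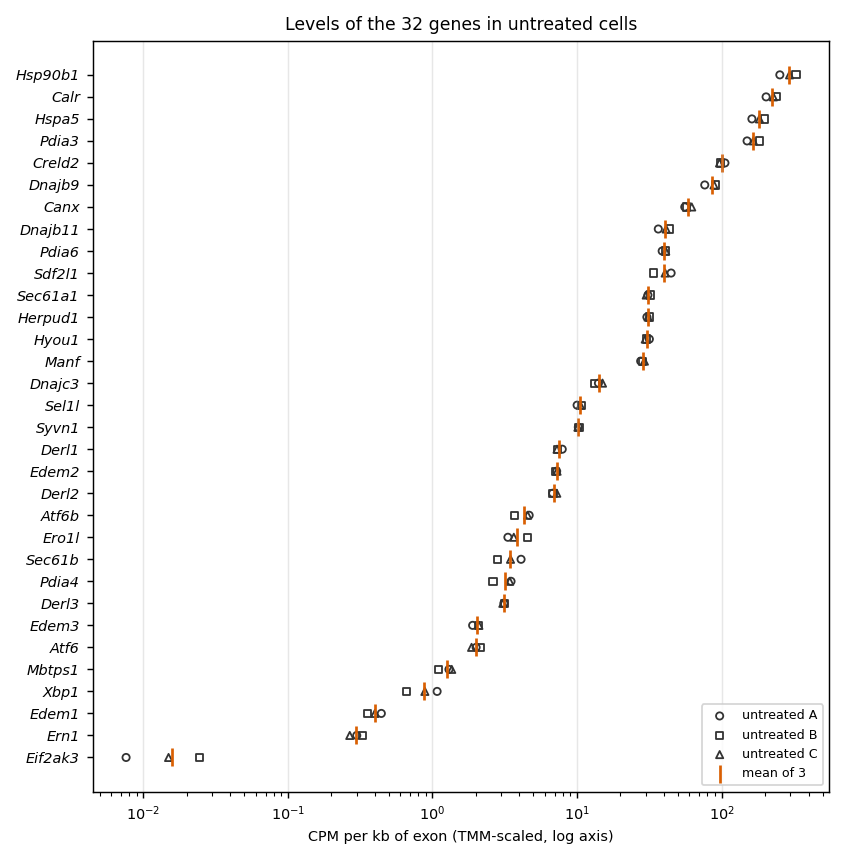
Levels of the 32 genes in untreated cells, in TMM-scaled CPM per kilobase of exon on a log axis; open symbols are the 3 libraries and the bar is their mean. Hsp90b1, Calr, Hspa5 and Pdia3 lie at the top, and Xbp1, Edem1, Ern1 and Eif2ak3 at the bottom.

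Promoter sequence was not itself used in choosing the genes. They were picked as known genes of this response, however, so their share of its motifs is a description and not independent support. The ER stress response element (ERSE), bound by ATF6 with NF-Y, was searched as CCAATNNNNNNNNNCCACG on both strands in the 250 bases upstream of each RefSeq start (GRCm38.p6). Of the 32 genes, 27 have an entry in that RefSeq collection, and 9 of the 27 held it (33.3%), against 35 of 27025 genes overall (0.13%). The holders were Calr, Canx, Creld2, Derl3, Dnajc3, Hsp90b1, Hspa5, Pdia6 and Syvn1, and Hsp90b1 held 2. The second form, ERSE-II, searched as ATTGGNCCACG, was found in Herpud1 and in 0.04% of all genes. The UPRE, a motif bound by XBP1 and ATF6 and searched as TGACGTGG, was in none of the 27 and in 0.6% of all genes. The core of the element bound by ATF4 with C/EBP factors, TGATGNAA, was in Herpud1 and in 3.91% of all genes. Matches of different motifs did not overlap each other. A match says only that these letters are in the window, and Hyou1, Atf6, Manf, Derl1 and Sec61a1 were not searched. The sites of the 3 holders that rose with oxamate (Canx, Pdia6 and Creld2), of Hspa5, whose level differed little, and of Herpud1, which fell, are given below, 5′ to 3′ on the strand of the gene with 5 bases on either side. Capitals mark the fixed letters of the motif; in Creld2 the element lies on the opposite strand and reads as its reverse complement.
Canx (chr11:50325795-50325823, minus strand, ERSE): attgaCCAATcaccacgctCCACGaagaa
Pdia6 (chr12:17266486-17266514, plus strand, ERSE): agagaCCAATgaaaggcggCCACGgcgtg
Creld2 (chr15:88819515-88819543, plus strand, ERSE): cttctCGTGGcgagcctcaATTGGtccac
Hspa5 (chr2:34772020-34772048, plus strand, ERSE): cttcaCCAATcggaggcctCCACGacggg
Herpud1 (chr8:94386372-94386392, plus strand, ERSE-II): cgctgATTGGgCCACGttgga

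Library totals ran from 24849620 to 46671048 counts, and 18234 genes were tested, among them 31 of the 32. Spermatocyte markers summed to between 1625 and 1915 CPM in every library, but single markers went in both directions. Pou5f2 passed as lower in oxamate against untreated. In octyl-L-2HG against oxamate Mlh3, Hormad1 and Pou5f2 passed as higher and Spag6 as lower. Against untreated Mlh3 and Sycp1 passed as higher and Spag6 as lower. Sertoli cell markers summed to between 1.41 and 2.60 CPM, Leydig cell markers to between 1.83 and 3.96, endothelial markers to between 3.66 and 9.59 and macrophage markers to between 2.40 and 9.06, the highest in octyl-L-2HG library B; no marker was at 0 in all libraries. Markers of elongating spermatids, haploid cells past meiosis, were also present: their 10 genes summed to between 1031 and 1201 CPM in untreated libraries, 793 and 992 with oxamate, and 110.1 and 308 with octyl-L-2HG. All 10 passed as lower in octyl-L-2HG against oxamate, as did 8 of 10 round spermatid markers. In bulk RNA, fewer cells of a type and less RNA per cell cannot be told apart. Octyl-L-2HG library C lay apart from the others of its group on the first principal component (49.6 against 100.1 and 103).

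Oxamate against untreated cells compares ER folding and stress genes after 48 h with the inhibitor and in cells with no treatment. As the untreated culture time is not given, oxamate and time in culture cannot be told apart. Lactate dehydrogenase activity is not part of these data. Canx, Pdia6, Ern1, Creld2, Hyou1 and Manf were higher, and Ero1l and Herpud1 lower. The rises had log2 changes between 0.28 and 0.75, and the falls -0.54 and -0.29. Genes counted as changed have an adjusted p under 0.05 in limma-voom, with Benjamini-Hochberg adjustment over all 18234 genes. That makes 6 of 31 higher (19.4%), beside 5.74% of all genes tested, and 2 lower (6.45%), beside 3.84%. The median log2 change was 0.13 over the 31 genes and -0.01 over all genes. The libraries of both groups did not overlap for 14 of the 31 (45.2%; 10 higher, 4 lower), beside 34.0% of all genes. Summed markers of other cells were lower with oxamate, with no overlap, in 4 lists. Elongating spermatid markers are given above, and round spermatid markers summed to 1677 to 1772 CPM untreated and 1560 to 1632 with oxamate; none of these 20 genes passed singly. Endothelial markers summed to 8.48 to 9.59 and 6.13 to 7.89 CPM, and 1 of the 5 passed, Vwf (log2 change -0.69). The Leydig cell sum, 3.44 to 3.96 and 1.83 to 2.44 CPM, was mostly Star (3.15 to 3.63 and 1.40 to 2.19), the only one of the 6 with enough counts to test (-0.83, limma adjusted p = 0.021). The part of these cells in the changes was not tested.

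Among chaperones, Hyou1 (ENSMUSG00000032115, chromosome 9, 44379490 to 44392369), a large HSP70 relative of the ER lumen, stood at 229, 219.9 and 215 CPM in untreated libraries A, B and C. With oxamate it stood at 330.0, 301 and 310.2 CPM. All oxamate libraries lay above all untreated ones, and the gap between the groups was wider than either group's range. The log2 change was 0.50 (SE 0.0904, limma adjusted p = 0.0082). Canx (ENSMUSG00000020368, chromosome 11, 50293961 to 50325673), the membrane lectin calnexin that holds glycoproteins until they fold, went from 261, 269.5 and 292 to 320.1, 338 and 390.3 CPM. No libraries overlapped between groups, and library C was the highest in both. Its log2 change was 0.35 (SE 0.0855, limma adjusted p = 0.029).

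Pdia6, a protein disulfide isomerase that also acts on the sensors Ern1 and Eif2ak3, went from 146, 153 and 154 CPM to 171, 195 and 197. Library A was the lowest in both groups, and the groups did not overlap. The log2 change was 0.32 (SE 0.0845, limma adjusted p = 0.039). Creld2, an ER protein with EGF-like domains and isomerase activity that is released under ER stress, went from 144, 135 and 132 CPM to 178, 165 and 158. Here library A was the highest in both groups, and again no oxamate library fell within the untreated range (log2 change 0.28, SE 0.0776, limma adjusted p = 0.043). Manf, a secreted neurotrophic factor that binds Hspa5, went from 97.2, 100.7 and 103 CPM to 119, 132 and 143. Every oxamate library lay above every untreated one (log2 change 0.38, SE 0.1, limma adjusted p = 0.037).

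Both falls were in genes with separate roles. Ero1l, the oxidase that recharges disulfide isomerases, went from 17.6, 24.1 and 19.3 CPM to 11.9, 14.6 and 14.8. Untreated library B stood above the other 2, yet all oxamate libraries lay below all untreated ones. The log2 change was -0.54 (SE 0.139, limma adjusted p = 0.034). Herpud1, an ER membrane protein that scaffolds the ERAD ligase complex, went from 71.0, 74.0 and 72.5 CPM to 64.6, 58.1 and 55.4. The untreated libraries lay close together and oxamate library A was nearest to them (log2 change -0.29, SE 0.0823, limma adjusted p = 0.049).

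Of the sensors that could be tested Ern1 rose and Atf6 did not pass, nor did Xbp1, the transcription factor activated by Ern1. Ern1 (ENSMUSG00000020715, chromosome 11, 106394650 to 106487852) stood at 2.45, 2.67 and 2.19 CPM in untreated libraries and at 3.96, 4.57 and 3.81 with oxamate. The groups did not overlap, and its log2 change was 0.75 (SE 0.173, limma adjusted p = 0.023). Atf6 stood at 18.5, 19.9 and 17.2 CPM untreated and 18.0, 17.9 and 19.2 with oxamate, overlapping groups with a log2 change of -0.01 (95% interval -0.22 to 0.21, limma adjusted p = 0.98). Xbp1, whose total RNA and not its splicing was counted, stood at 3.50, 2.15 and 2.88 CPM and at 4.26, 2.27 and 3.65, with library A the highest and B the lowest in each group. Its log2 change was 0.23 (SE 0.265, limma adjusted p = 0.63). Atf6b, the Atf6 paralog, had 0.16 (limma adjusted p = 0.66) and Mbtps1 0.29 (limma adjusted p = 0.22).

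Hspa5 (ENSMUSG00000026864, chromosome 2, 34771970 to 34777547) binds unfolded protein and holds the sensors inactive. It stood at 686, 843 and 774 CPM untreated and at 683, 844 and 829 with oxamate. The groups overlapped almost fully, with library A the lowest and B the highest in both. The log2 change was 0.03, with a 95% interval of -0.22 to 0.28 (limma adjusted p = 0.89). Among the other holders of an ERSE, Canx, Pdia6 and Creld2 passed, as given above. Hsp90b1, with a log2 change of 0.17 (limma adjusted p = 0.53), and Calr, with 0.13 (0.69), did not pass. Nor did Dnajc3, the co-chaperone that inhibits Eif2ak3, with -0.07 (0.66). Of the 9 genes with an ERSE 3 rose and none fell, and their median log2 change was 0.17. Of the other 17 tested genes with a promoter entry, 1 rose and 2 fell, with a median of -0.00. These 17 include Herpud1, which holds an ERSE-II and fell. Hyou1 and Manf, which rose, were not searched and are in neither set. In octyl-L-2HG against oxamate none of either set passed, with medians of 0.15 with an ERSE and 0.17 without, and in octyl-L-2HG against untreated 2 of 9 and 3 of 17 rose, with medians of 0.21 and 0.16. Beside these counts, 5.74% of all genes tested rose and 3.84% fell with oxamate. In octyl-L-2HG against oxamate the shares were 4.11% and 15.4%, and against untreated 17.2% and 21.1%. These are descriptions with no test.

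**Figure D2:**
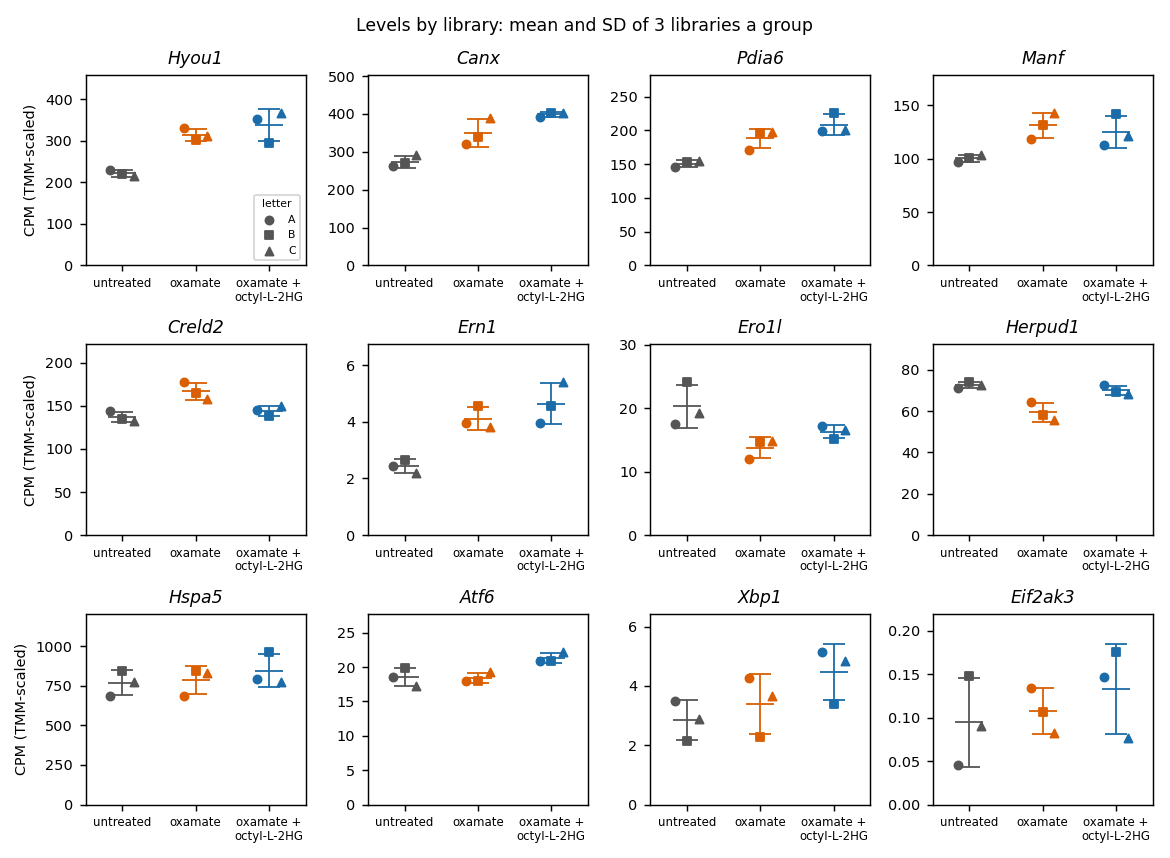
TMM-scaled CPM of 12 genes in each library, from 0 up; symbols mark the letters A, B and C, and bars give the mean and SD of 3 libraries a group. Hyou1, Canx, Pdia6, Manf, Creld2 and Ern1 lie higher with oxamate than untreated with no overlap, Ero1l and Herpud1 lie lower, and the groups of Hspa5, Atf6, Xbp1 and Eif2ak3 overlap.

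The ERAD genes went in both directions and mostly missed the threshold. Edem3, one of the mannosidase-like proteins that mark glycoproteins for disposal, had a log2 change of 0.39 (limma adjusted p = 0.064) and its relative Edem2 one of -0.35 (0.066). In both the groups did not overlap. Derl3, a derlin of the ER membrane, had 0.44 (0.070), also with no overlap, while its relatives Derl1 and Derl2 had -0.29 (0.21) and -0.09 (0.54). Edem1 had -0.08 (0.78), the ubiquitin ligase Syvn1 -0.11 (0.66) and its partner Sel1l 0.13 (0.29). In the disulfide isomerase group, Pdia3 had 0.34 (0.16) and Pdia4 0.29 (0.21), each with overlapping groups. The co-chaperones Dnajb9 and Dnajb11 had -0.01 (0.97) and -0.00 (0.99), and Sdf2l1, which works with Dnajb11, -0.18 (0.53). The translocon subunits Sec61a1 and Sec61b, through which new chains enter the ER, had 0.01 (0.95) and -0.32 (0.40).

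Same-letter libraries of these groups deviated together across genes, and with the letter as a block 9 of the 31 genes were higher and 3 lower, where 2210 genes were higher and 1822 lower in all. Added were Pdia3 (0.34, blocked limma adjusted p = 0.018), Derl3 (0.44, 0.027), Edem3 (0.39, 0.014) and, among the falls, Edem2 (-0.35, 0.02). The genes called without the block passed with it too, at blocked limma adjusted p from 0.0014 (Hyou1) to 0.015 (Herpud1). The unblocked calls rest on few libraries. Without untreated library A 1 gene was higher (Hyou1) and 1 lower (Ero1l), without B 1 was higher (Hyou1) and none lower, and without C none passed, with 223 higher and 115 lower among all genes. Without oxamate library A 7 were higher and 1 lower, while without B or C 1 was higher (Hyou1) and none lower. Hyou1 passed under 16 of 17 alternatives, with log2 changes from 0.47 to 0.54, and missed only without untreated library C (limma adjusted p = 0.061). The other called genes passed under fewer: Ern1 under 12, Canx, Manf and Ero1l under 11, Pdia6 and Herpud1 under 10 and Creld2 under 8. With upper quartile scaling 3 were higher (Canx, Ern1 and Hyou1) and 3 lower (Ero1l, Herpud1 and Edem2). In the authors' deposited table, 8 of the 32 genes were higher (Hyou1, Canx, Pdia3, Pdia6, Ern1, Creld2, Manf and Edem3) and 3 lower (Edem2, Herpud1 and Ero1l) at an adjusted p under 0.05. The share of all genes past it in that table was not counted, so these numbers have no background beside them.

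**Figure D3:**
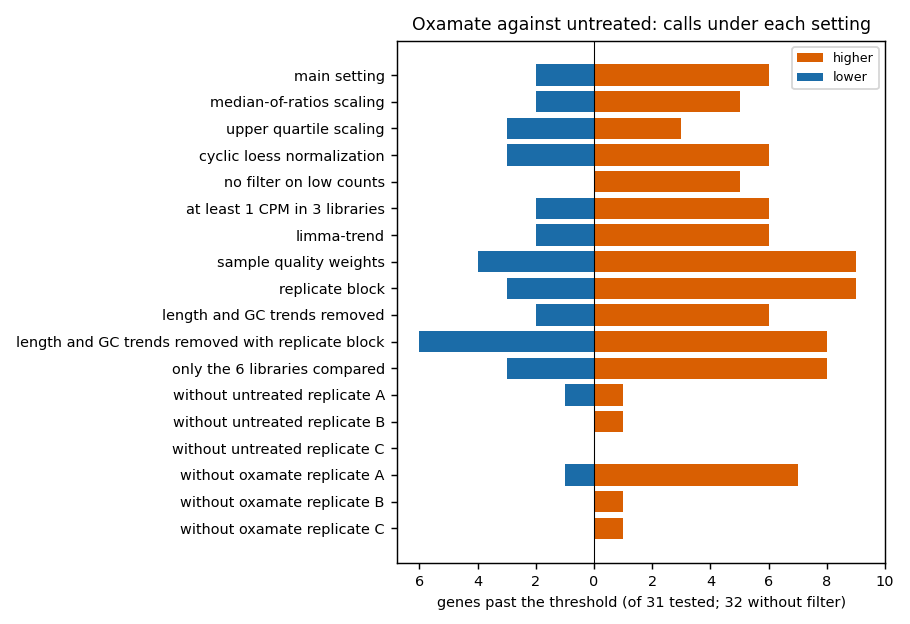
Number of genes past an adjusted p of 0.05 in oxamate against untreated under the main setting and 17 alternatives; bars to the right count higher genes and bars to the left lower ones. Counts run from 0 without untreated library C to 9 higher with the replicate block or with sample quality weights.

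Octyl-L-2HG added to oxamate, against oxamate alone, asks what the L-2-hydroxyglutarate ester adds. None of the 31 genes passed in limma-voom, higher or lower, beside 4.11% of all genes tested higher and 15.4% lower. At an unadjusted p under 0.05, 4 were higher and 1 lower, beside 5677 of 18234 genes in either direction. The authors' deposited table also has 0 of the 32 genes past an adjusted p of 0.05 in both directions. The median log2 change was 0.15, beside 0.07 over all genes, and 27 of 31 were positive, beside 10832 of 18234 genes. The groups did not overlap for 8 of the 31 (25.8%; 7 higher, 1 lower), beside 33.1% of all genes.

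The genes nearest the threshold were Herpud1 and Creld2. Herpud1 stood at 64.6, 58.1 and 55.4 CPM with oxamate and 72.6, 69.1 and 68.5 with octyl-L-2HG in addition. All libraries with the ester lay above all others (log2 change 0.24, SE 0.0824, limma adjusted p = 0.061). Creld2 stood at 178, 165 and 158 CPM and at 145, 138 and 150.2. All octyl-L-2HG libraries lay below all oxamate ones, and its log2 change was -0.21 (SE 0.0774, limma adjusted p = 0.087). Both genes had passed with the opposite sign in oxamate against untreated, a comparison that uses the same oxamate libraries. Sel1l had a log2 change of 0.19 (limma adjusted p = 0.097), Canx 0.19 (0.14) and Atf6 0.21 (0.15), all without overlap of the groups. Xbp1 had the highest log2 change, 0.43, with a 95% interval of -0.11 to 0.98 and overlapping groups (limma adjusted p = 0.27). For Hspa5 the value was 0.10 with an interval of -0.15 to 0.35, and for Hyou1 0.10 with an interval of -0.09 to 0.30. Pdia6, Derl2 and Ero1l also had groups without overlap, with log2 changes of 0.15, 0.11 and 0.26. The others lay between -0.13 (Derl3) and 0.25 (Atf6b), all with overlapping groups. Without oxamate library A Herpud1 passed (0.31, limma adjusted p = 0.031), and without oxamate library C Canx did (0.28, 0.038).

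Octyl-L-2HG with oxamate against untreated cells covers both agents together, and again any difference in time in culture. Canx, Pdia6, Ern1, Sel1l, Hyou1, Manf and Edem3 were higher and no gene was lower. That is 7 of 31 (22.6%), beside 17.2% of all genes tested, a share near the background, and 0 lower beside 21.1%. At an unadjusted p under 0.05, 12 were higher and 1 lower, beside 8621 of 18234 genes in either direction. The median log2 change was 0.21, beside 0.01 over all genes. The groups did not overlap for 14 of the 31 (45.2%), beside 51.3% of all genes. At an adjusted p under 0.05 the authors' deposited table has 11 genes higher (Hsp90b1, Hyou1, Canx, Pdia3, Pdia6, Ern1, Atf6b, Xbp1, Manf, Edem3 and Sel1l) and 0 lower. Here too the share of all genes in that table was not counted. Summed markers of Leydig cells (2.77 to 2.86 CPM) and endothelial cells (3.66 to 7.13) lay below all untreated libraries. So did those of round spermatids (1206 to 1466) and elongating spermatids. The spermatogonium sum lay above (57.5 to 64.4 CPM, against 44.4 to 55.5) and was mostly Id4 (51.7 to 58.6, against 36.3 to 47.3). Of its 5 tested genes Id4 passed as higher and Kit and Gfra1 as lower, with a median log2 change of -0.40. The part of all these cells in the changes was not tested. With cyclic loess normalization 8 were higher and 2 lower (Ero1l and Edem2), and with length and GC trends removed 10 were higher and 2 lower.

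Hyou1, Canx and Pdia6 had their highest group means, 338, 399 and 209 CPM, with octyl-L-2HG. Hyou1 stood at 352, 294 and 367 CPM, against 229, 219.9 and 215 untreated. Even its lowest library, B, lay well above the untreated range (log2 change 0.61, SE 0.0901, limma adjusted p = 3e-04). Canx stood at 391, 402 and 403 CPM, against 261, 269.5 and 292. Its octyl-L-2HG libraries lay closer together than those of any other group, and the log2 change was 0.54 (SE 0.0851, limma adjusted p = 0.00044). Pdia6 stood at 199, 226 and 200.5 CPM (log2 change 0.46, SE 0.0841, limma adjusted p = 0.0012). Manf stood at 113, 142 and 121 CPM, with library B well above the others (log2 change 0.31, SE 0.1, limma adjusted p = 0.032). It no longer passed without untreated library A (0.28, limma adjusted p = 0.11), B (0.27, 0.12) or C (0.28, 0.11), or without octyl-L-2HG library B, where it was 0.20 (0.1), nor with cyclic loess normalization (0.22, 0.063), a filter of 1 CPM (0.25, 0.067) or length and GC trends removed (0.29, 0.058).

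Ern1 stood at 3.95, 4.58 and 5.40 CPM with octyl-L-2HG, above all untreated libraries, and its log2 change was 0.92 (SE 0.17, limma adjusted p = 0.0014). This was 1.89-fold, the largest change of any of the 31 genes in this comparison. The ERAD factors Sel1l and Edem3 passed here and not with oxamate alone, but neither passed in octyl-L-2HG against oxamate. Sel1l, the adaptor of the Syvn1 ligase, stood at 85.7, 92.2 and 90.2 CPM untreated, 97.4, 96.0 and 99.4 with oxamate and 114, 106 and 114 with octyl-L-2HG. Its 3 groups did not overlap with one another, and the log2 change against untreated was 0.32 (SE 0.0732, limma adjusted p = 0.005). Edem3 stood at 12.1, 13.3 and 13.4 CPM untreated, 15.2, 18.1 and 17.5 with oxamate and 18.0, 17.8 and 21.4 with octyl-L-2HG. The untreated libraries lay below all others, and the log2 change was 0.56 (SE 0.118, limma adjusted p = 0.0029). Canx, Pdia6, Ern1, Sel1l, Hyou1 and Edem3 passed under all 17 alternatives.

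Atf6, Xbp1 and Hspa5 had positive log2 changes that missed the threshold. Atf6 stood at 20.9, 20.8 and 22.2 CPM with octyl-L-2HG, above all untreated libraries (log2 change 0.21, SE 0.096, limma adjusted p = 0.11). Xbp1 stood at 5.15, 3.39 and 4.84 CPM, and its library B lay below untreated library A (log2 change 0.66, SE 0.255, limma adjusted p = 0.06). Hspa5 stood at 795, 964 and 776 CPM, overlapping the untreated range, with a log2 change of 0.13 and a 95% interval of -0.11 to 0.38. Ero1l stood at 17.2, 15.2 and 16.5 CPM, just under the lowest untreated library at 17.6 (log2 change -0.28, limma adjusted p = 0.12), Herpud1 had -0.05 (0.69) and Creld2 0.07 (0.48).

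Of the genes not yet given, Pdia3 had a log2 change of 0.36 (limma adjusted p = 0.072), Pdia4 0.34 (0.073), Mbtps1 0.35 (0.067), Hsp90b1 0.32 (0.13), Atf6b 0.41 (0.13) and Derl3 0.31 (0.1). Edem2 had -0.26 (0.082), Derl1 -0.24 (0.2) and Sec61b -0.21 (0.47). For Pdia3, Pdia4, Derl3, Edem2 and Derl1 the groups did not overlap. Calr, Dnajb9, Dnajb11, Dnajc3, Sdf2l1, Edem1, Syvn1, Derl2 and Sec61a1 lay between -0.07 and 0.21, with overlapping groups.

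**Figure D4:**
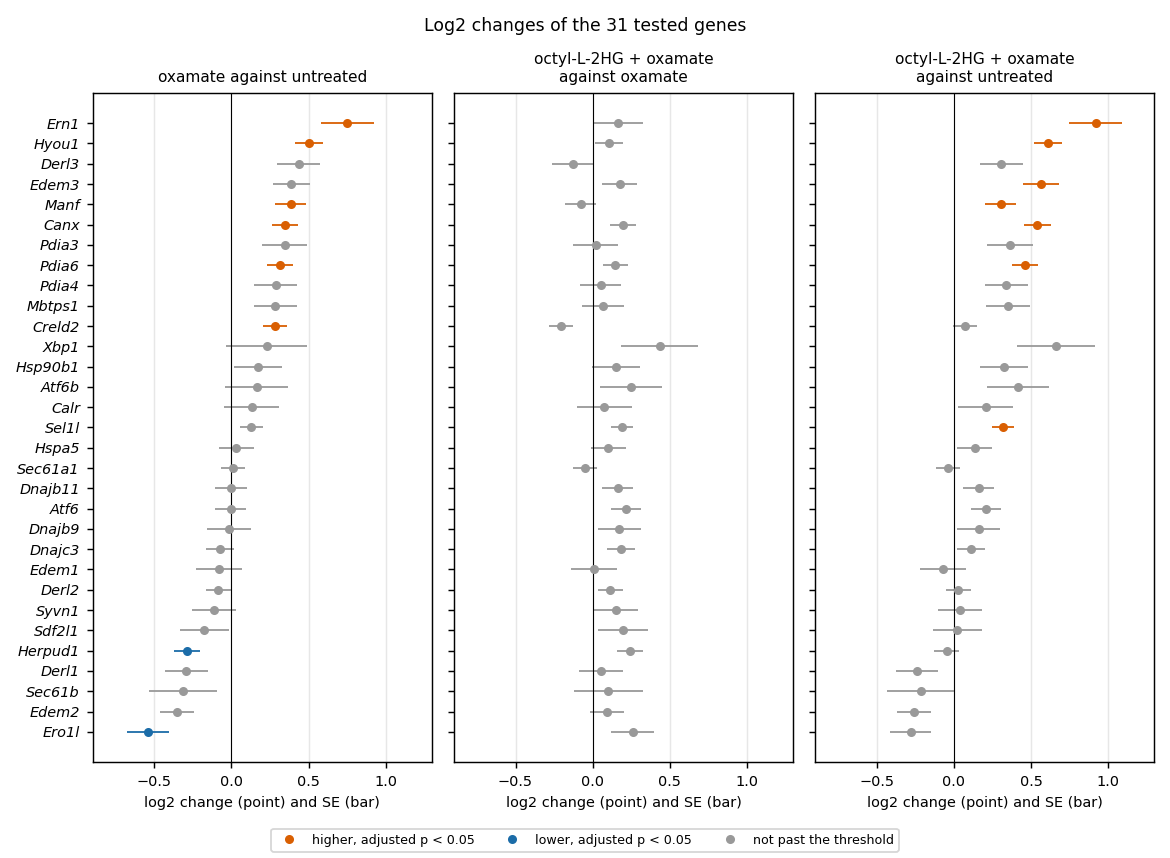
Log2 changes of the 31 tested genes in the 3 comparisons, ordered by oxamate against untreated; points are log2 changes and bars their SE, with genes past an adjusted p of 0.05 in colour. Orange genes number 6 on the left and 7 on the right, blue ones 2 on the left, and no gene is coloured in the middle.

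For part of the genes, the library of one letter was the highest or lowest of every group. Canx, Calr, Pdia3, Pdia6 and Manf had library A as the lowest in all 3 groups, and Atf6b, Xbp1, Sdf2l1, Derl1 and Sec61b had it as the highest. Library B was the highest in all groups for Hspa5 and Dnajb9 and the lowest for Pdia4, Dnajc3, Atf6b, Xbp1 and Sdf2l1. Library C was the highest throughout for Canx alone, and the lowest throughout for none. No label says what the letters mark. The 32 genes summed to 4703, 5423 and 5151 CPM in untreated libraries A, B and C, to 5035, 5964 and 6166 with oxamate and to 5714, 7024 and 5755 with octyl-L-2HG. Library A was the lowest of each group. The oxamate group overlapped with both others, while all octyl-L-2HG libraries lay above all untreated ones. The group means were 5092 ± 364, 5722 ± 603 and 6164 ± 745 CPM. The overlap depends on the scaling. As a share of all counts, without TMM, the genes made up 0.4883% to 0.5283% untreated and 0.5375% to 0.6074% with oxamate, with no overlap. With octyl-L-2HG they made up 0.5825% to 0.6424%. The largest parts of the sum were Hsp90b1, Hspa5, Calr and Pdia3, which passed in none of the comparisons.

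**Figure D5:**
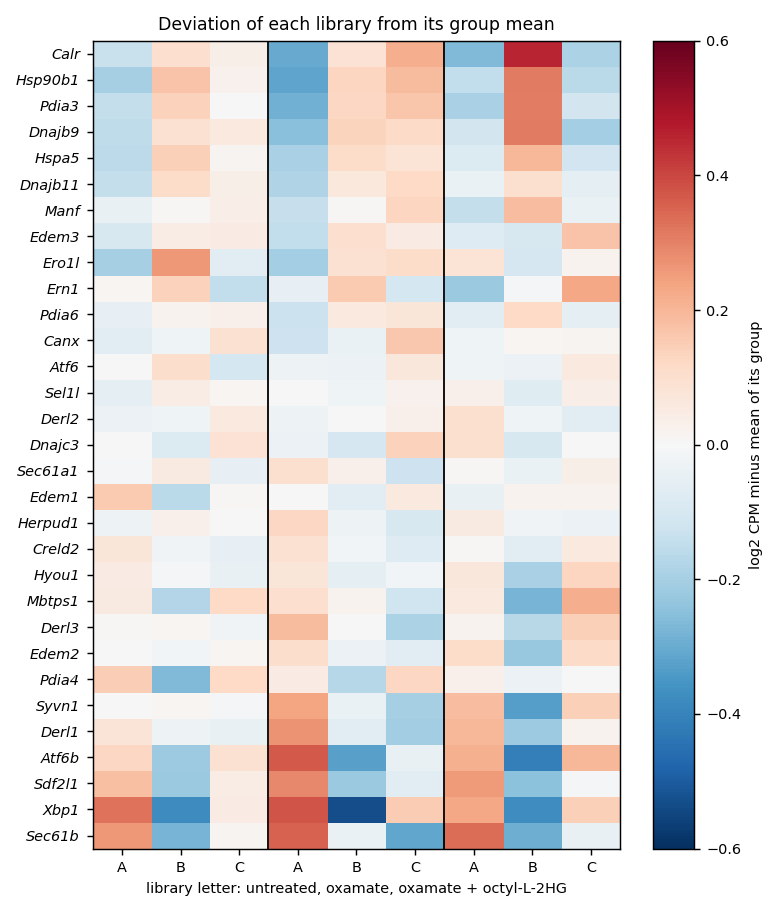
Deviation of each library from the mean of its group, in log2 CPM, for the 31 tested genes (rows) and 9 libraries (columns, with lines between the groups); red is above and blue below the group mean. Library A is blue for the abundant chaperones at the top, such as Calr, Hsp90b1 and Pdia3, and red for Xbp1, Sdf2l1 and Sec61b at the bottom.

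Beyond the 32 genes, further lists of ER genes were counted in oxamate against untreated. Of 32 other tested ER chaperones and folding enzymes, 2 rose and 3 fell, with a median log2 change of -0.01, and 13 had an unadjusted p under 0.05, beside 4852 of 18234 genes. The falls were Fkbp14, a collagen-directed prolyl isomerase, at -1.56 (SE 0.219, limma adjusted p = 0.003), the selenoprotein Selenof at -0.57 (0.0032) and Sdf2, the paralog of Sdf2l1, at -0.63 (0.016). The rises were the thioredoxin-like membrane proteins Tmx3 at 0.48 (0.047) and Tmx1, named after its value was seen, at 0.39 (0.023). Of 36 further ERAD genes 1 rose, the lectin Os9 that hands misfolded glycoproteins to Sel1l, from 44.9, 53.9 and 51.2 to 59.5, 70.3 and 73.5 CPM (0.44, limma adjusted p = 0.029), and none fell. Of 25 translocon, signal peptidase and SRP receptor genes none rose and 1 fell, the signal peptidase subunit Spcs1 (-0.35, 0.011). Of 21 sensor partners and ER-membrane bZIP factors, Ptpn1, a phosphatase of the ER membrane, rose (0.45, 0.0048), and Traf2, the adaptor that Ern1 recruits (-0.86, 0.011), and Creb3l2 (-1.13, 0.019) fell. These shares compare with 5.74% higher and 3.84% lower of all genes.

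A list built around eIF2 alpha, Atf4 and Ddit3 holds targets of that branch together with eIF2 alpha itself (Eif2s1), the kinases Eif2ak1, Eif2ak2 and Eif2ak4 and the adaptors Nck1 and Nck2. Of its 21 tested genes 1 rose with oxamate and none fell. It was Bbc3, a pro-apoptotic BH3-only gene and p53 target at low level, from 0.183, 0.259 and 0.180 to 1.35, 0.780 and 0.521 CPM (log2 change 1.96, SE 0.511, limma adjusted p = 0.036). Atf4, the transcription factor favoured when eIF2 alpha is phosphorylated, had a log2 change of 0.12 (0.66). Ddit3 (CHOP), its pro-apoptotic target, stood at 74.0, 85.0 and 86.7 CPM untreated and at 59.9, 68.1 and 71.6 with oxamate. The groups did not overlap and the value was -0.30, with limma adjusted p = 0.11. Ppp1r15a (GADD34), which restores translation, had 0.91 (0.16) with overlapping groups. Of the 25 listed genes 4 were too low to test: Trib3, Cebpb, Atf3 and Gdf15, at 0 to 8 counts per library.

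With octyl-L-2HG against oxamate, Ppp1r15b, the constitutive eIF2 alpha phosphatase subunit, rose (0.48, limma adjusted p = 0.016), as did Cebpg (0.30, 0.019), while Asns, the asparagine synthetase and Atf4 target, fell (-1.98, 6.8e-05), as did Nck2 (-1.80, 0.00027). Against untreated, 9 of these 21 genes rose, among them the kinases Eif2ak1 and Eif2ak4, and 2 fell, Asns and Nck2, with a median log2 change of 0.49, beside 17.2% higher and 21.1% lower of all genes. Atf4 stood at 34.5, 30.3 and 36.3 CPM untreated and at 58.8, 37.5 and 52.6 with octyl-L-2HG, all above untreated (0.56, SE 0.154, limma adjusted p = 0.014). Ppp1r15a rose as well (1.05, 0.047), and Ddit3 did not pass (-0.26, 0.076).

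Of 4 germ-cell ER chaperones, 2 fell with octyl-L-2HG against oxamate and none rose; none passed with oxamate alone. Calr3, the testis calreticulin needed in sperm maturation, stood at 17.9, 14.4 and 15.8 CPM untreated, 13.3, 9.96 and 13.5 with oxamate and 0.862, 0.880 and 2.46 with octyl-L-2HG. It fell 9.62-fold against oxamate (log2 change -3.27, SE 0.313, limma adjusted p = 6e-05). Pdilt, a disulfide isomerase-like protein that works with Clgn and Calr3, stood at 63.6, 58.0 and 73.0 CPM with oxamate and at 12.0, 14.2 and 30.4 with octyl-L-2HG, a fall of 3.72-fold (-1.89, SE 0.25, limma adjusted p = 0.00025). Library C was the highest of its group for both. Clgn, at 1583, 2210 and 2233 CPM with oxamate and 1846, 2762 and 1922 with octyl-L-2HG, had a log2 change of 0.10 (0.72), and Calr4 lay between 0.132 and 1.75 CPM, with library C the highest in each group. The elongating spermatid markers, given above, were 110.1 to 308 CPM in the libraries where Calr3 and Pdilt were low, and their part in these falls was not tested. Creb3l4, a bZIP factor of the ER membrane found in spermatids, also fell, from 92.2, 80.1 and 87.2 to 22.9, 23.9 and 41.8 CPM (-1.60, 0.00013).

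In octyl-L-2HG against oxamate, where 4.11% of all genes rose and 15.4% fell, 2 of 32 other chaperones and folding enzymes rose and 1 fell, 3 of 36 ERAD genes fell and none rose (Ubxn8, Rnf5 and Herpud2, the paralog of Herpud1, at -0.47), and 2 of 25 translocon and signal peptidase genes rose, Ssr3 (0.54, limma adjusted p = 0.024) and Spcs3 (0.34, 0.036). Of the 21 sensor partners, 1 rose (Yy1) and 1 fell (Creb3l4). In each of these lists the share that fell was below that over all genes. Against untreated the counts were 9 higher and 5 lower of 32 chaperones, 6 and 8 of 36 ERAD genes, 7 and 3 of 25 translocon genes and 3 and 4 of 21 sensor partners, beside 17.2% and 21.1% of all genes. Medians over these lists lay between 0.01 and 0.05, against 0.01 over all genes.

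Overlapping genes limit some of these values. The exons of 10 of the 32 genes share bases with another annotated gene, mostly on the opposite strand: up to 549 bases in Sec61a1, 485 in Eif2ak3, 415 in Hsp90b1, 231 in Derl2 and 166 in Manf, with fewer in the others (50 in Pdia6). The library kit marks strand. How HTSeq was set for strand was not stated in the labels or headers, and reads of such partners may therefore be mixed. Hyou1, Canx, Creld2, Ern1, Ero1l, Herpud1, Sel1l and Edem3 share no exon base with another gene.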

How the data were processed

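The 9 libraries (3 groups of 3) were made by poly-A capture with a stranded KAPA kit, per the labels' protocols. For alignment and counting, the submitters' processing notes list TopHat2 2.1.1 and HTSeq 0.6.0 on GRCm38, beside DESeq2 1.22.2, and give no settings. The deposited table has, per the file headers, 1 raw and 1 normalized column a library, with log2 fold changes and adjusted p-values of the authors' own comparisons. Its raw columns hold whole-number counts (442944 of 442944 values) deposited by the authors with no normalization, except for 6255 genes given as question marks, which were left out. Since those cells kept the columns from being recorded as plain counts, edgeR and DESeq2 were not used here. The normalized columns were not used.

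Genes with 10 counts in the median library (0.288 CPM) in at least 3 libraries and 15 counts in all were kept (18234 of 49216). CPM are scaled by TMM (a trimmed mean of log ratios), with 30% of ratios and 5% of levels trimmed. Limma 3.58.1 in R 4.3.3 was run on log2 CPM, offset 0.5 (voom, robust empirical Bayes, one mean per group over all 9 libraries), adjusted by Benjamini-Hochberg at 0.05. The procedure was tested on simulated data with the same spread for all genes and no letter effect. That test does not cover the letter deviations or the unequal spread of these libraries. Intervals are 95%. Exon lengths and overlaps come from GENCODE vM21 on GRCm38, and coordinates from the file, with the same build. All pairs of libraries in a group differed beyond sampling noise.

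Each library's deviation from its group mean was correlated, across genes, with that of the library of the same letter in the other group. Untreated and oxamate gave 0.40, 0.40 and 0.29 (each above 0.1). For that comparison the letters were taken as pairs in a blocked fit, given beside the main result. The main calls, SE and adjusted p-values come from the fit without a block. Letters A, B and C gave 0.31, 0.39 and 0.04 in octyl-L-2HG against oxamate, and 0.17, 0.34 and 0.06 against untreated. As letter C was not above 0.1 there, the letters were not taken as pairs in these comparisons. No label says what the letters mark.

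The genes and lists were chosen with earlier results of these data known. Values per library are given for genes past the threshold in any comparison and for Ern1, Eif2ak3, Atf6, Xbp1 and Hspa5; of each other list the 3 genes with the smallest p in a comparison may be named, and Atf4, Ddit3, Ppp1r15a, Calr3, Clgn and Pdilt. Alternatives covered scaling, filter, weights, block, fewer libraries and each library left out, and 2 added after seeing the data: length and GC trends removed, with and without the block.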

Additional observations from a re-analysis of the deposited data

How the results depend on the processing

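Of 1581 alternative values of the 93 single-gene log2 changes, 77 passed the threshold where the main value had not, 54 missed it where the main value had passed, and 1 passed in the opposite direction: Derl2 in octyl-L-2HG against untreated, at -0.18 (limma adjusted p = 0.041) with length and GC trends removed and the replicate block. A change of sign was seen for 28 of the 93, 0 of them past the threshold in the main setting. Counts for the 31 genes are given first, higher then lower. In oxamate against untreated (6 and 2) they were 3 higher with upper quartile scaling, 0 lower with no filter on low counts, 4 lower with sample quality weights and 6 lower with both trends removed and the replicate block. Equal counts could hold different genes. With trends removed 6 and 2 passed, but Derl3 and Edem2 stood in place of Canx and Herpud1. With cyclic loess 6 were higher, with Pdia3 in place of Creld2. Each library left out in turn gave 0 to 7 higher and 0 to 1 lower. In octyl-L-2HG against oxamate (0 and 0), 1 was higher with upper quartile scaling, quality weights or trends removed, 4 with the replicate block and 4 with block and trends removed, 1 was lower with the block or a filter of 1 CPM, and 0 to 1 were higher with a library left out. In octyl-L-2HG against untreated (7 and 0), 11 were higher with quality weights, 13 with the replicate block and 14 with block and trends removed; lower were 1 with a filter of 1 CPM, 1 with the block, 2 with cyclic loess or trends removed and 4 with block and trends removed. The letters were not taken as pairs in the comparisons with octyl-L-2HG, where letter C gave correlations of 0.04 and 0.06. A call gained there under the block rests on letters that no label explains.

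Over all genes, oxamate against untreated (1047 higher, 700 lower) gave 902 and 982 with trends removed, 883 and 378 with no filter, 2251 and 1934 with quality weights, 2210 and 1822 with the replicate block, 1907 and 2254 with block and trends removed, and 223 to 1181 higher and 115 to 907 lower with a library left out. Octyl-L-2HG against oxamate (749 higher, 2801 lower) gave 351 higher with a filter of 1 CPM, 321 and 2961 with no filter, 146 and 2400 with only the 6 libraries compared, 1991 and 3214 with the block, 2095 and 3279 with block and trends removed, and 248 to 689 higher with a library left out. Octyl-L-2HG against untreated (3143 higher, 3845 lower) gave 3560 and 4017 with quality weights and 4444 and 4668 with the block. With block and trends removed it gave 4021 and 4963, with trends removed 2791 and 4079, and with cyclic loess 2993 and 4228. The calls among the 31 genes under these settings stand beside these numbers. A library left out gave 1968 to 2955 higher. The cause of these differences was not tested. Depth limits the low genes: Eif2ak3 could not be tested, and Ern1 and Xbp1 lie at a few CPM.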
